A study of Mus musculus with 9 samples.

Results

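Potassium channel genes were followed across the nuclei of the mouse cortex and hippocampus. The members were all genes whose symbol begins with Kcn, continues with lower-case letters and ends in a number. The rule found 92 of the 31053 genes in the deposited count tables, all of them protein-coding. They fell into 18 families, of which the K2P leak channels with 14 members, the silent Kv subunits with 10 and the Kv1 and Kv10-12 channels with 8 each were the largest.

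Potassium channels let potassium leave or enter a cell and so set its resting potential and the shape, timing and rate of its action potentials. Voltage-gated Kv channels open when a neuron fires, BK and SK channels open with intracellular calcium, inward rectifiers and K2P channels hold the membrane near rest, and auxiliary subunits such as KChIPs, Kv beta and BK beta proteins tune the pores they bind. Glia use the same gene family to take up the potassium that neurons release, and mural and endothelial cells use it to set vessel tone.

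The study profiled 9 single-nucleus RNA libraries, each from 1 male wild-type C57BL/6 mouse, in 3 groups of 3. Young AAV-EGFP mice were 5 months old, and Aged AAV-EGFP and Aged AAV-B3GNT3 mice were 19 months old. By the methods of the study, young mice came from Jackson Laboratories and aged mice from a National Institute on Aging colony. Age and supplier therefore cannot be told apart in any comparison of aged with young mice. All mice, controls included, had received an adeno-associated virus with the PHP.V1 capsid and a short CLDN5 promoter, which is active in brain endothelial cells, by retro-orbital injection, and tissue was collected 8 weeks later. It carried the reporter EGFP in all groups, alone in both control groups and together with the glycosyltransferase B3GNT3 in the third. Hence no group was free of virus, and the transgene was directed to endothelial cells rather than to the neurons and glia in which most potassium channel transcripts were found. Nuclei came from pooled cortex and hippocampus, were stained for the neuronal protein NeuN and with Hoechst and sorted as single nuclei. Whether NeuN served as a gate is not stated, and class shares are not compared here.

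The libraries held 47332047 to 79964605 UMIs (unique molecular identifiers, each standing for 1 captured transcript), and 70300 nuclei were kept, with a median of 2998 to 5324 UMIs per nucleus. The lowest median belonged to Aged AAV-B3GNT3 replicate 2. Potassium channel genes made up 1.895% to 2.37% of the UMIs of a library. The gene B3gnt3 had 5 to 17 UMIs per library with overlapping groups, and whether transcripts of the transgene would be counted under it is not stated. Pairs of libraries shared 7 to 37 barcodes, and replicates differed by more than sampling noise. Nuclei were clustered without the Kcn genes and named from markers, so each class name stands for nuclei like that cell type. The excitatory neurons (20402 nuclei), inhibitory neurons (8151), astrocytes (8432), oligodendrocytes (20395), oligodendrocyte precursors (2662), microglia (1922), fibroblasts (1834), pericytes (966) and brain endothelial cells (752) carried their markers highest, except 1 of the 5 markers of inhibitory neurons and Rgs5 for pericytes. A cluster led by Drd2, Rgs9 and Rarb, genes of striatal neurons, supplied 27.7% to 55.1% of the inhibitory nuclei of a library.

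Every one of the 92 genes had at least 1 UMI in a kept nucleus, and 54 reached 20 CPM (UMIs of a gene scaled to the same total in every class and library) in at least 1 of 9 classes, 17 of them in all classes. Levels below are means over the 9 libraries ± SD (n = 9). They compare one gene between classes and carry no test, since the classes were formed from the same nuclei. The share of UMIs that fell on potassium channel genes was highest in excitatory neurons, at 2.728%, followed by inhibitory neurons at 2.15% and oligodendrocyte precursors at 1.257%. The other classes lay between 0.5132% in pericytes and 0.7062% in oligodendrocytes.

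RNA released from broken nuclei enters every droplet. Its likely contribution to a class was estimated from the summed counts of the library's other kept nuclei and the level of foreign markers in the class. The RNA of the class itself was left out of that profile. The estimate for excitatory neurons thus rests on other nuclei, while those for glial and vascular classes include neuronal nuclei, and the counts below depend on this. In neurons, none of the 38 members of excitatory and 39 of inhibitory neurons that reached 20 CPM had an estimate of 50% or more of its level. In oligodendrocyte precursors the number was 10 of 35, in astrocytes 15 of 26, in oligodendrocytes 16 of 23, in fibroblasts 19 of 27, in microglia 23 of 27, in pericytes 24 of 28 and in brain endothelial cells 26 of 27. For many of the commoner neuronal channels the level in glial or vascular nuclei thus lay near or below the estimate for free RNA, while the genes named next stood well above theirs unless stated. An estimate that exceeds the level of a gene is too high, and its subtraction leaves few or no counts. A call lost in that way does not decide what part of a change was free RNA.

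In excitatory neurons Kcnj6, which encodes a G protein-gated rectifier (GIRK2), stood at 362.6 ± 39.9 CPM against 93.6 in inhibitory neurons, the next class. The leak channel gene Kcnk9 followed at 75.3 ± 10.0 CPM, and Kcnv1, which encodes a silent Kv subunit, at 20.4 ± 4.93 CPM, with a range that met that of brain endothelial cells. Inhibitory neurons had 582.5 ± 111.7 CPM of Kcnmb2, a BK beta subunit gene, which was 9.77 times the level of the next class. They also had 1163 ± 244 CPM of Kcnc2, a Kv3 gene known from fast-spiking cells, and 38.7 ± 9.10 CPM of Kcns3. Kcnc1, the other Kv3 gene of fast-spiking cells, was at 129.3 ± 23.9 CPM in inhibitory and 46.5 ± 8.77 CPM in excitatory neurons, and the ranges over the libraries did not meet.

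Several abundant channel genes were shared more widely. Kcnma1, the pore gene of the BK channel, had 2601 ± 88.4 CPM in excitatory and 1295 ± 68.9 CPM in inhibitory neurons. Kcnq5, a gene of the M current, did not differ beyond its spread between excitatory (2175 ± 174 CPM) and inhibitory neurons (2146 ± 352 CPM). Its partner Kcnq3 was higher in oligodendrocytes (1515 ± 84.5 CPM) than in excitatory neurons (1184 ± 66.3 CPM). Kcnd2, which encodes the A-current pore Kv4.2, was highest in oligodendrocyte precursors at 4214 ± 530 CPM, ahead of inhibitory neurons at 3419 ± 665 CPM, with overlapping ranges, and excitatory neurons at 2718 ± 277 CPM.

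The glial genes named next were picked for the ratio of their level to that of the next class. At 20 CPM or more, 3 members in astrocytes and 3 in oligodendrocyte precursors reached 2 times the next class. In oligodendrocytes 2 did and in microglia 1. Oligodendrocyte precursors were set apart by Kcnh8, a Kv12 gene, at 429.3 ± 73.8 CPM, 46.9 times the level in the next class, and it had a UMI in a median of 74.5% of their nuclei against 2.73% of excitatory neurons. They also led in Kcnip3 (556.2 ± 145.3 CPM), a calcium-binding KChIP gene, and in the leak channel gene Kcnk10 (223.9 ± 44.0 CPM). Oligodendrocytes led in the Shaker genes Kcna1 (381.5 ± 114.0 CPM, 5.37 times the next class) and Kcna6 (151.9 ± 24.5 CPM). Astrocytes led in the leak channel gene Kcnk1 (122.7 ± 19.2 CPM) and in the SK channel genes Kcnn2 (765.7 ± 248.6 CPM) and Kcnn3 (165.7 ± 29.6 CPM), although the range of Kcnn2 (255.5 to 1142 CPM) met that of inhibitory neurons (214.9 to 368.1 CPM).

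Kcnj10, which encodes the glial potassium-buffering channel Kir4.1, was at 78.3 ± 11.8 CPM in oligodendrocytes, 66.5 ± 12.9 CPM in astrocytes and 51.2 ± 13.8 CPM in oligodendrocyte precursors, and these neighbours overlapped. Its partner Kcnj16 (Kir5.1) was at 28.8 ± 10.8 CPM in the precursors and 24.2 ± 4.48 CPM in astrocytes, which also overlapped, and did not pass 3.62 CPM elsewhere. Microglia had 76.0 ± 19.7 CPM of Kcnk6 (38.6 CPM with doublets left in), 6.76 times the next class, and 43.5 ± 12.9 CPM of Kcnk12, which overlapped with excitatory neurons. Kcnk13, which encodes THIK-1, the main leak channel of microglia, was at 266.8 ± 57.0 CPM there and at 313.6 ± 76.4 CPM in oligodendrocytes, with overlapping ranges.

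Vascular classes were small, and in each at least 1 member at 20 CPM or more had its highest level. Brain endothelial cells had 98.3 ± 46.9 CPM of Kcnq1, a Kv7 gene, against 3.43 CPM in excitatory neurons, the next class, and an estimate of 0.933 CPM of free RNA. The other members ranked for endothelial cells, Kcnt2 at 143.3 CPM and Kcnk9 at 20.6 CPM, were higher in excitatory neurons, and in both the free-RNA estimate was over 50% of the level (113.9 and 16.2 CPM). Pericytes had 127.0 ± 38.7 CPM of Kcnj8, which encodes the vascular KATP pore Kir6.1, 9.35 times the level in brain endothelial cells, and led in the rectifier gene Kcnj12 (53.98 ± 16.6 CPM). Fibroblasts led in the leak channel genes Kcnk2 (643.5 ± 68.2 CPM) and Kcnk5 (59.8 ± 28.03 CPM) and in Kcnj13 (24.1 ± 9.11 CPM, overlapping with pericytes). With doublets left in, the fibroblast class formed differently, with 34.7 CPM of Kcnk2, 142.7 CPM of Kcnk5 and 9.80 CPM of Kcnj13. The 117 nuclei of choroid plexus, too few to describe by library, had 181.5 CPM of Kcnj13, the gene of the epithelial rectifier Kir7.1, in their summed counts.

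**Figure D1:**
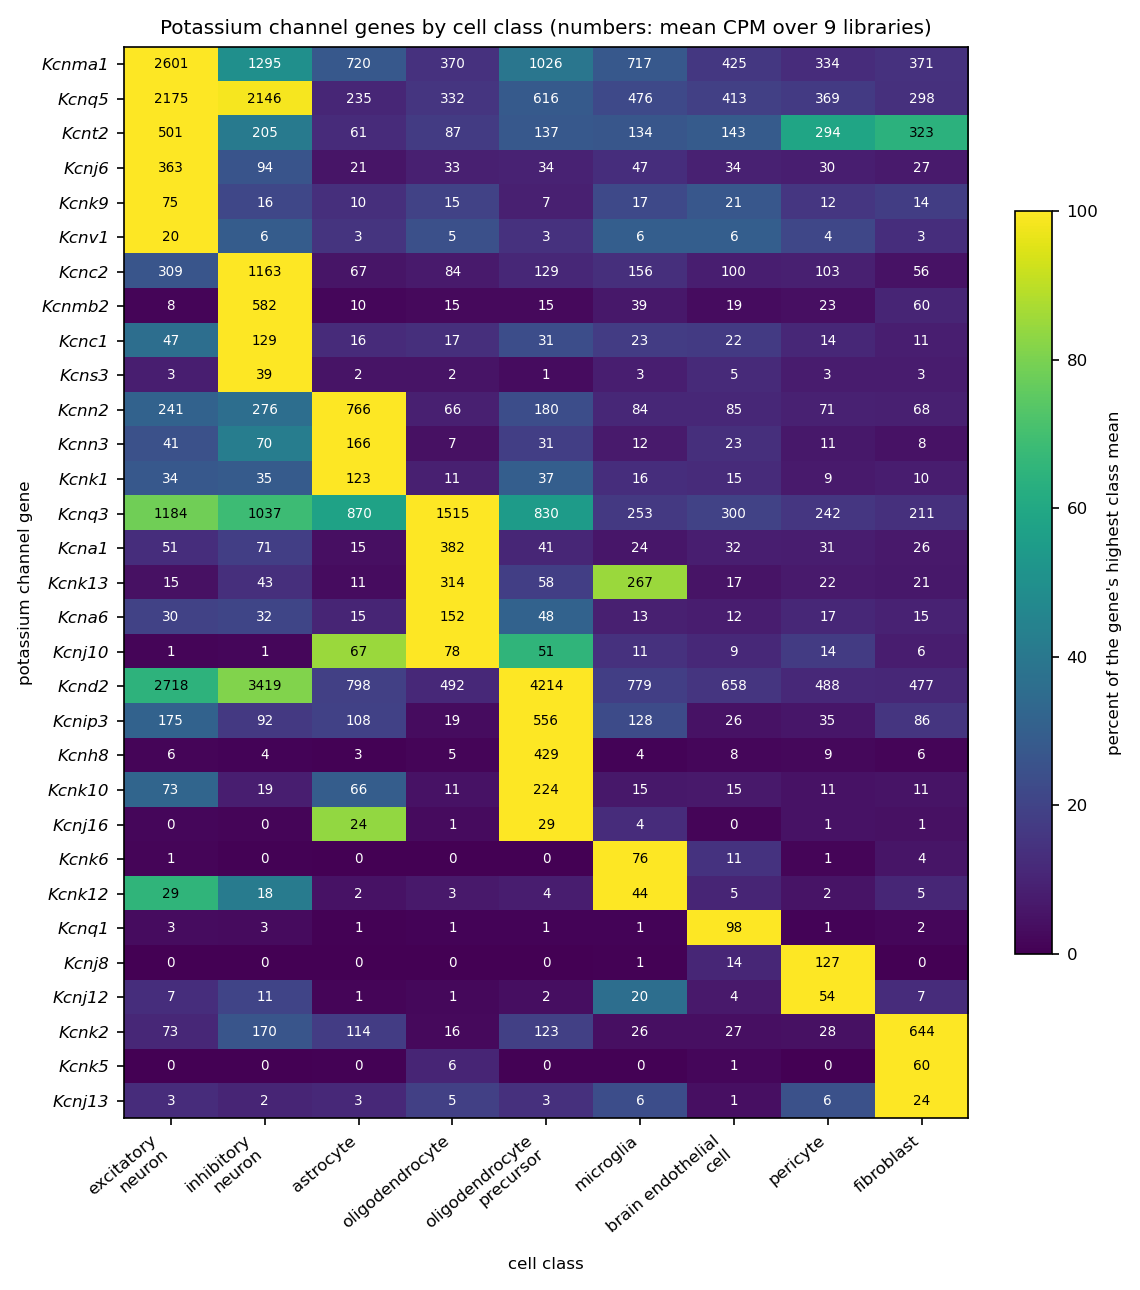
Potassium channel genes (rows) in the 9 classes (columns). The number in each cell is the mean CPM over 9 libraries and the colour is that mean as a percent of the gene's highest class. Genes picked for their ratio to the next class are high in their class by that choice. Examples are Kcnh8 in oligodendrocyte precursors at 429.3 CPM and Kcnj8 in pericytes at 127.0 CPM.

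Within the neurons, sub-clusters named from subclass markers differed in a few genes by large margins. Near-projecting neurons had 157.5 ± 79.1 CPM of Kcnh8, 24.4 times the next excitatory subclass, and 503.3 ± 75.1 CPM of the KChIP gene Kcnip1, 8.54 times the next. Middle-layer neurons had 520.6 ± 81.4 CPM of Kcnh5 (EAG2), 3.51 times the next. Dentate granule neurons led in the silent subunit gene Kcng2 (77.8 ± 15.8 CPM). In these genes the lowest library of the leading subclass lay above the highest library of the next.

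The remaining excitatory subclasses were less distinct. Deep intratelencephalic neurons led in Kcnc1 (144.8 ± 26.9 CPM) and Kcnv1 (74.3 ± 25.7 CPM), the latter with overlapping libraries. Upper-layer neurons led in Kcnh4 (46.3 ± 10.3 CPM) and Kcnk13 (37.3 ± 13.4 CPM), and middle-layer neurons in Kcnk4 (21.2 ± 4.66 CPM). Layer 6 corticothalamic neurons led in Kcnk3 (26.9 ± 5.03 CPM) and Kcnn2 (359.5 ± 28.9 CPM), 1.37 to 1.67 times the next subclass. Kcnk13, Kcnk4 and Kcnk3 overlapped between the leading and next subclass.

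Among inhibitory neurons, a sub-cluster of 1620 nuclei named Drd2 striatal had 63.6 ± 18.4 CPM of Kcnh4 and 152.4 ± 26.7 CPM of Kcnn3, 12.2 and 5.18 times the next subclass. Pvalb neurons had 3614 ± 577 CPM of Kcnc2 against 1673 CPM in Sst neurons, and led in the Kv beta gene Kcnab3 (27.0 ± 6.28 CPM). Vip neurons led in Kcnt2 (856.4 ± 166.4 CPM), a sodium-activated channel gene, and in the Kv2 gene Kcnb2 (1069 ± 144 CPM). Lamp5 neurons led in Kcnk13 (87.0 ± 29.5 CPM) and Kcnj12 (23.3 ± 4.27 CPM), and Sst neurons in Kcnk10 (61.7 ± 10.5 CPM) and Kcna6 (57.7 ± 9.49 CPM), the last 4 genes and Kcnab3 with overlapping libraries. No subclass name could be given to 7058 excitatory and 3142 inhibitory nuclei.

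**Figure D2:**
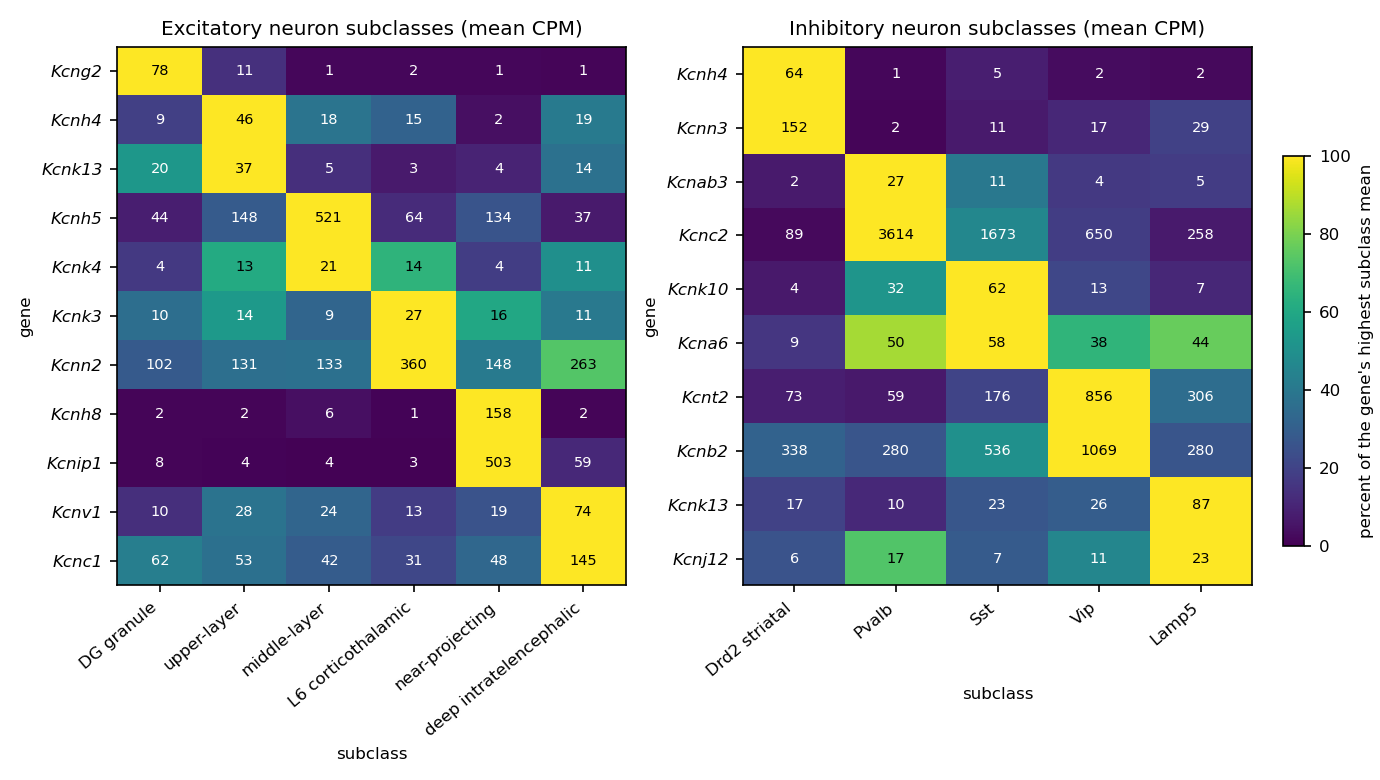
Potassium channel genes (rows) in the excitatory (left) and inhibitory (right) neuron subclasses (columns). The number in each cell is the mean CPM over libraries and the colour is that mean as a percent of the gene's highest subclass, which was near-projecting neurons for Kcnh8 (157.5 CPM) and Pvalb neurons for Kcnc2 (3614 CPM).

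Group differences were tested on UMIs summed per library and class, with edgeR's quasi-likelihood test adjusted over all genes tested in the class. A gene is said to have risen or fallen where its adjusted p was under 0.05. Of the 92 members, 74 passed the filter on low counts in at least 1 of 7 classes and 14 in all 7. The 18 that were not tested in any class included Kcnj8. Group differences were not tested in pericytes and fibroblasts. Ageing stands for Aged AAV-EGFP against Young AAV-EGFP, and treatment for Aged AAV-B3GNT3 against Aged AAV-EGFP, so both comparisons share the Aged AAV-EGFP libraries. Group levels beside a fold change are CPM on TMM-scaled library sizes. In such summed counts, fewer cells that express a gene and less RNA per cell cannot be told apart.

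In excitatory neurons, 8 of 73 members tested fell with age and 2 rose. Of the genes that fell, 4 encode auxiliary subunits (Kcnip3, Kcnip2, Kcnmb4 and Kcnab2) and 4 encode pores (Kcnd3, Kcna1, Kcnj12 and Kcnk13). The called genes were 13.7% of the members, against 14.1% of all genes in either direction. The count over both directions was thus near the background. The falls were 8 of 73 members, against 6.63% of all genes, and this difference was not tested. The median log2 fold change was -0.14 over the members and 0.02 over all genes. By family, 2 of 4 KChIP genes, 1 of 3 Kv4 genes, 1 of 4 BK genes, 1 of 3 Kv beta genes, 1 of 5 Kv1 genes, 1 of 4 rectifiers outside the GIRK and Kir4.1 groups and 1 of 10 leak channels fell. No Kv2, Kv3, Kv7, SK or GIRK gene was called.

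Kcnip3 and Kcnip2 encode KChIP3 and KChIP2, which bind Kv4 pores and carry them to the membrane. Kcnip3 lies on chromosome 2 of GRCm38 (chr2:127456498-127522094, minus strand) and Kcnip2 on chromosome 19 (chr19:45791839-45816061, minus strand). The 250 bases before their annotated starts are shown because these were the members whose fall in excitatory neurons held in every alternative. They are RefSeq sequence of GRCm38.p6, written on the minus strand of the gene, at chr19:45816064-45816313 for Kcnip2 and chr2:127522095-127522344 for Kcnip3. Capitals mark the GC box, GGGCGG or its reverse complement CCGCCC.
Kcnip2: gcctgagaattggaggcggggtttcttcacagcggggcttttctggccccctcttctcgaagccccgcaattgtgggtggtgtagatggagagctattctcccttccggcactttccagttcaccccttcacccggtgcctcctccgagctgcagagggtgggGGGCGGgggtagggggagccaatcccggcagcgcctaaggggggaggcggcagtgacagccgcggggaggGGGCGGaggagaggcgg
Kcnip3: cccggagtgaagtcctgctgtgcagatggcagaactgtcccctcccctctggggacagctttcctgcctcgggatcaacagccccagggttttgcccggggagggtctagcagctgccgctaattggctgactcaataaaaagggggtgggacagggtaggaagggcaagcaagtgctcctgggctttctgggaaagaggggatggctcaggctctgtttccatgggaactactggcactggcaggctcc
Kcnip2, with 1 window in the table, held 2 GC boxes. Kcnip3 has 3 windows, of which the one nearest the annotated start is shown, and it held none. The box was found in 44.6% of the 92 windows of the 67 members that have one and in 32.7% of all 32851 windows of that length.

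Kcnip3 had 230, 235 and 231 CPM in the Young AAV-EGFP libraries, 138, 109 and 97.9 CPM in the Aged AAV-EGFP libraries and 184, 226 and 128 CPM in the Aged AAV-B3GNT3 libraries. The young libraries were nearly alike, and every aged control library was under each of them. The log2 fold change with age was -1.01 ± 0.18 (SE, adjusted p = 0.00861, edgeR). Kcnip2 had 68.5, 64.1 and 79.8 CPM in young, 40.5, 39.0 and 44.4 CPM in aged control and 54.2, 69.6 and 51.9 CPM in B3GNT3 libraries. For Kcnip2 the aged control libraries lay below all others, and the log2 fold change with age was -0.78 ± 0.13 (adjusted p = 0.00677, edgeR). Both genes were called in 20 of 20 alternatives, with adjusted p up to 0.0450 for Kcnip3 and 0.0404 for Kcnip2.

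The other genes that fell encode 4 pores and 2 further subunits. Kcnd3, the gene of the A-current pore Kv4.3, which KChIPs bind, went from 411.2 ± 16.6 to 257.0 ± 47.9 CPM (SD, n = 3 each), a log2 fold change of -0.68 ± 0.16 (adjusted p = 0.0184, edgeR). Kcnmb4, the gene of the neuronal BK beta subunit, had 79.1, 77.1 and 83.4 CPM in young and 63.3, 54.2 and 56.2 CPM in aged control libraries (log2 fold change -0.46 ± 0.09, adjusted p = 0.0105, edgeR). Kcna1, the gene of the Shaker pore Kv1.1, went from 59.1 ± 7.15 to 38.7 ± 1.99 CPM (log2 fold change -0.61) and Kcnab2, a Kv beta subunit gene, from 77.4 ± 7.37 to 55.2 ± 2.29 CPM (log2 fold change -0.49). Kcnj12, a strong rectifier gene, went from 8.35 to 5.1 CPM (log2 fold change -0.71) and Kcnk13 from 20.02 to 10.4 CPM (log2 fold change -0.94).

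Kcnv1 rose from 17.2 ± 1.37 to 25.2 ± 4.36 CPM (log2 fold change 0.55 ± 0.15) and Kcnh6, an ERG channel gene, from 0.970 to 1.99 CPM (log2 fold change 1.02 ± 0.30), with 37.2 UMIs per library on average. In each of these 10 genes, picked by their adjusted p, the young and aged control libraries did not overlap, as in 28 of the 73 members tested. The share over all genes is not given here, so this adds nothing to the calls. The 5 most abundant pore genes did not pass the test, with log2 fold changes with age of 0.01 ± 0.15 for Kcnd2, 0.01 ± 0.11 for Kcnma1, 0.10 ± 0.12 for Kcnq5, 0.33 ± 0.14 for the ERG gene Kcnh7 and -0.13 ± 0.10 for Kcnq3.

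**Figure D3:**
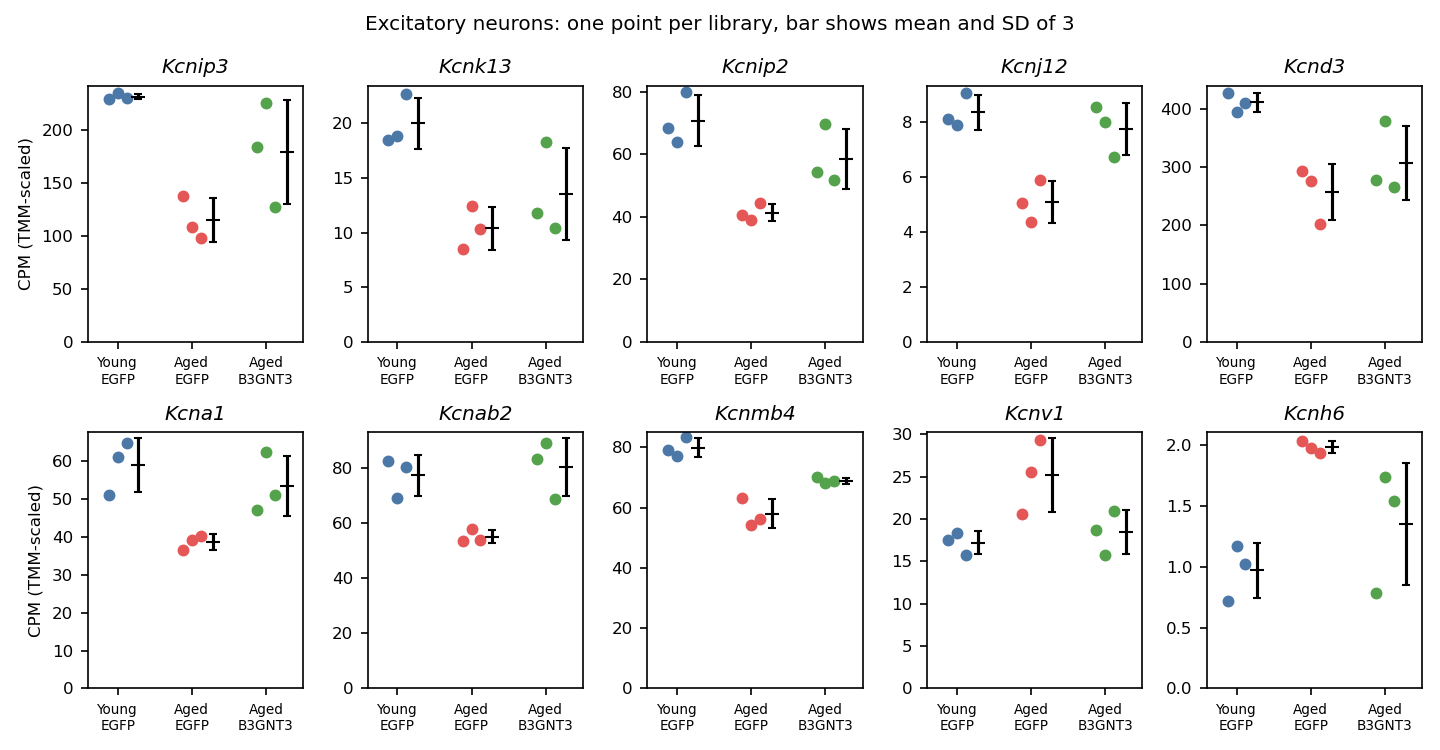
Level of the 10 potassium channel genes called with age in excitatory neurons, in CPM on TMM-scaled library sizes, for each of the 9 libraries by group, with a bar for the group mean and SD (n = 3). Kcnip3 falls from a mean of 231.8 CPM in young to 115.1 CPM in aged control libraries, with 179.1 CPM in the B3GNT3 group.

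Of the 8 genes that fell, Kcnip3, Kcnd3, Kcna1, Kcnmb4, Kcnj12 and Kcnk13 had their highest level in a class other than neurons, as had 37 of the 73 tested. RNA of other cell types in excitatory nuclei moved in the same direction. The summed level of 8 markers of glia and endothelium, none of them at 0, was 69.6 to 105.6 CPM in young, 44.0 to 64.5 CPM in aged control and 84.2 to 88.6 CPM in B3GNT3 libraries. The free-RNA estimate was 1.43% to 41.8% of the level of the called genes, with a median of 3.82%, and was highest for Kcnk13. After its subtraction 10 members were called, 8 of them as before and Kcnj6 and Kcnk12 in addition. Kcnk13 (log2 fold change -1.21, adjusted p = 0.104) and Kcnh6 (adjusted p = 0.0594, with a log2 fold change within 1 SE of that above) were no longer called. The part of such RNA in the other falls was not tested beyond this subtraction.

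The number of calls in excitatory neurons varied with the libraries used. It was 2 when Young AAV-EGFP replicate 3 was left out, 4 and 6 when replicates 2 and 3 of Aged AAV-EGFP were, 19 when replicate 1 of that group was and 16 when Aged AAV-B3GNT3 replicate 2 was. In the last of these fits 75 members were tested and 13.8% of all genes were called. For the other fits the share over all genes is not given here. Such counts without a share, here and in the other classes, do not tell whether the members moved apart from all genes. With Young AAV-EGFP replicate 3 left out, adjusted p was 0.0578 for Kcnmb4, 0.0629 for Kcna1, 0.0670 for Kcnd3, 0.0707 for Kcnk13, 0.0798 for Kcnab2 and Kcnj12, 0.113 for Kcnh6 and 0.125 for Kcnv1. With Aged AAV-EGFP replicate 2 left out it was 0.0511 for Kcna1, 0.0571 for Kcnab2 and Kcnd3, 0.0719 for Kcnj12, 0.0959 for Kcnv1 and 0.109 for Kcnh6. On the omission of replicate 3 of that group it was 0.0547 for Kcnk13, 0.0571 for Kcnd3, 0.0602 for Kcnab2, 0.0937 for Kcnh6 and 0.118 for Kcnv1. Young AAV-EGFP replicate 1 mattered for Kcnab2 (0.0554 on its omission), Kcnv1 (0.0684) and Kcnh6 (0.123), Young AAV-EGFP replicate 2 for Kcnv1 (0.0602) and Kcnh6 (0.0654), and Aged AAV-EGFP replicate 1 for Kcnh6 (0.0517). In the largest excitatory cluster alone, Kcnab2 had a log2 fold change of -0.37 (adjusted p = 0.0635) and Kcnh6 of 0.99 (adjusted p = 0.0515). Over all alternatives the log2 fold changes kept their sign, at -0.78 to -0.53 for Kcnd3, -0.70 to -0.54 for Kcna1, -0.57 to -0.37 for Kcnab2, -0.53 to -0.42 for Kcnmb4, -1.05 to -0.61 for Kcnj12, -1.21 to -0.81 for Kcnk13, 0.42 to 0.67 for Kcnv1 and 0.85 to 1.19 for Kcnh6. DESeq2 called 18 of 73 members, against 17% of all genes.

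After treatment, 1 of 73 members rose in excitatory neurons, against 2.49% of all genes called in either direction. This was Kcnab2, with 53.6, 57.8 and 54 CPM in aged control and 83.4, 89.3 and 68.7 CPM in B3GNT3 libraries, a log2 fold change of 0.54 ± 0.11 (adjusted p = 0.0384, edgeR). The groups did not overlap. The call was lost in 8 of 20 alternatives, among them the omission of Aged AAV-B3GNT3 replicates 1 (adjusted p = 0.127) and 2 (0.166), of Aged AAV-EGFP replicates 2 (0.154) and 3 (0.0628) and of Young AAV-EGFP replicate 3 (0.0664). The members' median log2 fold change was 0.19 against 0.01 over all genes, and 29 members (39.7%) had an unadjusted p under 0.05, against 23.4% of all genes. Without Aged AAV-B3GNT3 replicate 2 these shares were 22.7% and 14.8%, and the share of all genes called fell from 2.49% to 0.0231%. DESeq2 called 11 of 73 members, against 8.87% of all genes. With edgeR, 16 were called when Aged AAV-B3GNT3 replicate 3 was left out, 6 and 3 when replicates 1 and 3 of Aged AAV-EGFP were, 2 when Young AAV-EGFP replicate 1 was, and 0 when replicate 3 of the young group, replicate 2 of the aged controls or replicate 1 or 2 of the B3GNT3 group was. Kcnip3 and Kcnip2 had log2 fold changes of 0.64 ± 0.18 (adjusted p = 0.0700) and 0.50 ± 0.13 (adjusted p = 0.0570, edgeR).

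In inhibitory neurons, 2 of 67 members fell with age and none rose, against 4.07% of all genes. Kcna1 went from 80.1 ± 4.96 to 55.5 ± 6.29 CPM (log2 fold change -0.53 ± 0.11, adjusted p = 0.0318, edgeR), and its B3GNT3 libraries stood at 77.1 ± 5.48 CPM. Kcnj10, a glial gene with 11 UMIs per library here, went from 2.21 to 0.693 CPM (log2 fold change -1.74 ± 0.42, adjusted p = 0.0397). Its free-RNA estimate was 1.29 to 2.84 CPM, above the observed level in each group. The 8 foreign markers were at 87.6 to 137.1 CPM in young, 51.8 to 80.4 CPM in aged control and 94.3 to 98.3 CPM in B3GNT3 libraries. Kcna1 kept its call after subtraction and in 14 of 20 alternatives.

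The inhibitory count also hung on single libraries and on the Drd2-led cluster. It was 0 when replicate 1 or 3 of the young group or replicate 2 or 3 of the aged controls was left out, 1 when replicate 1 or 2 of the B3GNT3 group was, and 4 when aged control replicate 1 or B3GNT3 replicate 3 was. The adjusted p of Kcna1 was 0.0641 and 0.106 on leaving out young replicates 1 and 3, and 0.109 and 0.0898 on leaving out aged control replicates 2 and 3. Its log2 fold changes were then -0.59 to -0.48. Kcnj10 lost its call on the omission of any library but aged control replicate 1 and B3GNT3 replicate 3, with adjusted p from 0.0532 to 0.151. When the Drd2-led cluster was left out, an alternative chosen after the data were seen, 7 of 61 members were called, against 5.01% of all genes, among them Kcnab2, Kcna1, Kcnk10, Kcnk13, Kcnj6 and Kcnip2. Kcnc2 and Kcnc1, the Kv3 genes of fast-spiking cells, were not called in the whole class, with log2 fold changes with age of -0.11 ± 0.23 and -0.30 ± 0.17.

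After treatment, 0 of 67 members were called in inhibitory neurons, against 0.659% of all genes. Of these members, 10 (14.9%) had an unadjusted p under 0.05, against 18.5% of all genes, and DESeq2 called 2, against 2.98% of all genes. One member was called without the Drd2-led cluster (Kcnk2, a log2 fold change of -0.50), against 2.1% of all genes, 1 on the omission of young replicate 2 and 2 on that of B3GNT3 replicate 3. Kcnc2 and Kcnc1 had log2 fold changes of -0.18 ± 0.23 and 0.14 ± 0.17.

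In astrocytes, 12 of 52 members fell with age and 1 rose. This is 25% of the members, against 11.7% of all genes in either direction and 7.02% that fell, and the median log2 fold change was -0.51 over the members and -0.00 over all genes. Kcnj6 had the largest fall, with 36.6, 30.2 and 33.5 CPM in young, 11.2, 9.87 and 4.63 CPM in aged control and 19.1, 26.0 and 19.9 CPM in B3GNT3 libraries. The 3 groups did not overlap in it, and its log2 fold change with age was -2.00 ± 0.26 (adjusted p = 0.000573, edgeR). The Kv3 gene Kcnc2 fell by 1.57, Kcnq5 by 1.52 and the Kv2 gene Kcnb2 by 1.47 on the log2 scale, each with an adjusted p of 0.000826 or less. Kcna2, a Shaker gene, rose from 47.6 ± 5.39 to 76.5 ± 9.67 CPM (log2 fold change 0.68 ± 0.16, adjusted p = 0.0159).

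Kcnk1, Kcnn2 and Kcnn3, which had their highest level in astrocytes, and the buffering channel genes Kcnj10 and Kcnj16 were not called, while Kcna2 also had its highest level there. With age Kcnj10 had a log2 fold change of -0.12 ± 0.19, Kcnj16 of 0.25 ± 0.20, Kcnk1 of 0.27 ± 0.16, Kcnn3 of 0.16 ± 0.18 and Kcnn2 of -0.60 ± 0.33 (adjusted p from 0.242 to 0.716, edgeR). Of the 12 genes that fell, 9 had their highest level in neurons, as had 24 of the 52 tested. For Kcnj6, Kcnc2, Kcnq5 and Kcnb2 the free-RNA estimate for young libraries was 66.3 to 432.6 CPM, against observed means of 33.5 to 353.5 CPM.

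Neuronal RNA gave different results by the list used. A list of 6 RNAs abundant in neuronal nuclei (Meg3, Snhg11, Rbfox3, Syt1, Snap25 and Celf4), chosen after the data were seen, had a summed level in astrocytes of 2549 to 2650 CPM in young, 994 to 1468 CPM in aged control and 1931 to 2624 CPM in B3GNT3 libraries. All 6 fell with age there, with log2 fold changes of -1.13 to -0.67. The list of 7 neuronal markers that served the free-RNA estimate was at 281.3 to 307.1, 187.9 to 347.8 and 232.1 to 255 CPM in the same order. There the aged control libraries overlapped with both other groups. The estimate was a median of 195.6% of the level of the called genes. Where it exceeds the level, few or no counts remain, so a gene can leave the test whatever its change. After subtraction 1 of the 13 was still tested and none was called. That gene was Kcna2, with a log2 fold change of 0.69 (adjusted p = 0.0986), as large as before. With doublets left in, no member was called, and Kcna2 had a log2 fold change of 0.61 (adjusted p = 0.0676) while those of Kcnj6, Kcnc2, Kcnq5 and Kcnb2 were -0.55 to -0.26. Aged AAV-EGFP replicate 2 decided the call of Kcna2 (adjusted p = 0.0686 without it), as did Young AAV-EGFP replicates 2 (0.0580) and 3 (0.0591). The log2 fold changes were then 0.59, 0.65 and 0.64.

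After treatment 9 of 52 members rose in astrocytes and none fell, against 4.77% of all genes in either direction and 2.01% that rose. Among them were Kcnd3 (log2 fold change 1.39 ± 0.30), Kcnj6 (1.38 ± 0.27), Kcnip1 (1.32 ± 0.26), Kcnip4 (0.97 ± 0.20), Kcnb2 (0.95 ± 0.21), Kcnq5 (0.93 ± 0.22), Kcnc2 (0.87 ± 0.20) and Kcnh7 (0.68 ± 0.15), with adjusted p from 0.0167 to 0.0261 (edgeR). Kcnd3 was at 36.5, 48.9 and 54.3 CPM in aged control and at 109, 196 and 61.3 CPM in B3GNT3 libraries, so its rise was uneven. For 6 of the 9 the highest level was in a neuron class, as for 24 of the 52 tested, and 2 of the 6 neuronal nuclear RNAs rose as well. Kcnj10 (-0.27 ± 0.19) and Kcnj16 (-0.51 ± 0.21) were not called.

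Aged AAV-B3GNT3 replicate 2, the library with the fewest UMIs per nucleus, decided the 9 calls. Without it no member was called, and the share of all genes called fell to 0.11%. The log2 fold changes of the members named were then 0.63 (Kcnh7) to 1.22 (Kcnj6), with adjusted p from 0.0973 for Kcnj6 to 0.152 for Kcnq5. On leaving out aged control replicate 3, 5 members were called, and Kcnb2 (0.0731), Kcnc2 (0.0858), Kcnq5 (0.0700) and Kcnh7 (0.0759) were among those that were not. Kcnd3 (0.0785) and Kcnh7 (0.0521) lost the call on the omission of aged control replicate 2, and Kcnh7 also on that of B3GNT3 replicate 3 (0.0572). After the subtraction of free RNA, estimated at a median of 197.7% of the level of the 9 genes, 1 of them was still tested and none was called. It was Kcnd3, with a log2 fold change of 3.13 and an adjusted p of 0.205. With doublets left in, none was called and Kcnb2, Kcnc2, Kcnh7, Kcnip4, Kcnj6 and Kcnq5 had a fold change of the opposite sign.

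Oligodendrocytes had the most called members. With age 22 of 63 fell and 3 rose, which is 39.7% of the members against 21.5% of all genes (10.3% fell and 11.2% rose). The median log2 fold change was -0.67 over the members and 0.02 over all genes. Kcnab1, which encodes the Kv beta subunit Kvβ1, rose most, with 279, 317 and 278 CPM in young, 496, 716 and 752 CPM in aged control and 572, 533 and 676 CPM in B3GNT3 libraries. All 6 aged libraries lay above the young ones. The log2 fold change with age was 1.17 ± 0.16 (adjusted p = 0.00214, edgeR), and the call held in 19 of 19 alternatives with adjusted p up to 0.00911.

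Kcna2, a pore that Kvβ1 binds, rose from 38.1 ± 3.69 to 68.7 ± 26.2 CPM (log2 fold change 0.86 ± 0.25, adjusted p = 0.0285), with overlapping groups. Kcna1, the Shaker gene that marks the class, had 177, 470 and 455 CPM in aged control libraries and was not called (log2 fold change 0.23 ± 0.27). Kcna2 lost its call on the omission of any young library (adjusted p 0.0527 to 0.0939) or of aged control replicate 2 (0.129) or 3 (0.0726), and after the subtraction of free RNA (0.0852), where its log2 fold change was again 0.86.

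Kcnab1 had a log2 fold change with age of -0.71 ± 0.21 in astrocytes (adjusted p = 0.0385, edgeR), where young and aged control libraries overlapped and the free-RNA estimate exceeded the level (121.6 against 86.2 CPM in young libraries). In oligodendrocytes that estimate was 139.5 of 290.9 CPM in young and 127.2 of 654.6 CPM in aged control libraries. The difference between the classes was not tested.

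**Figure D4:**
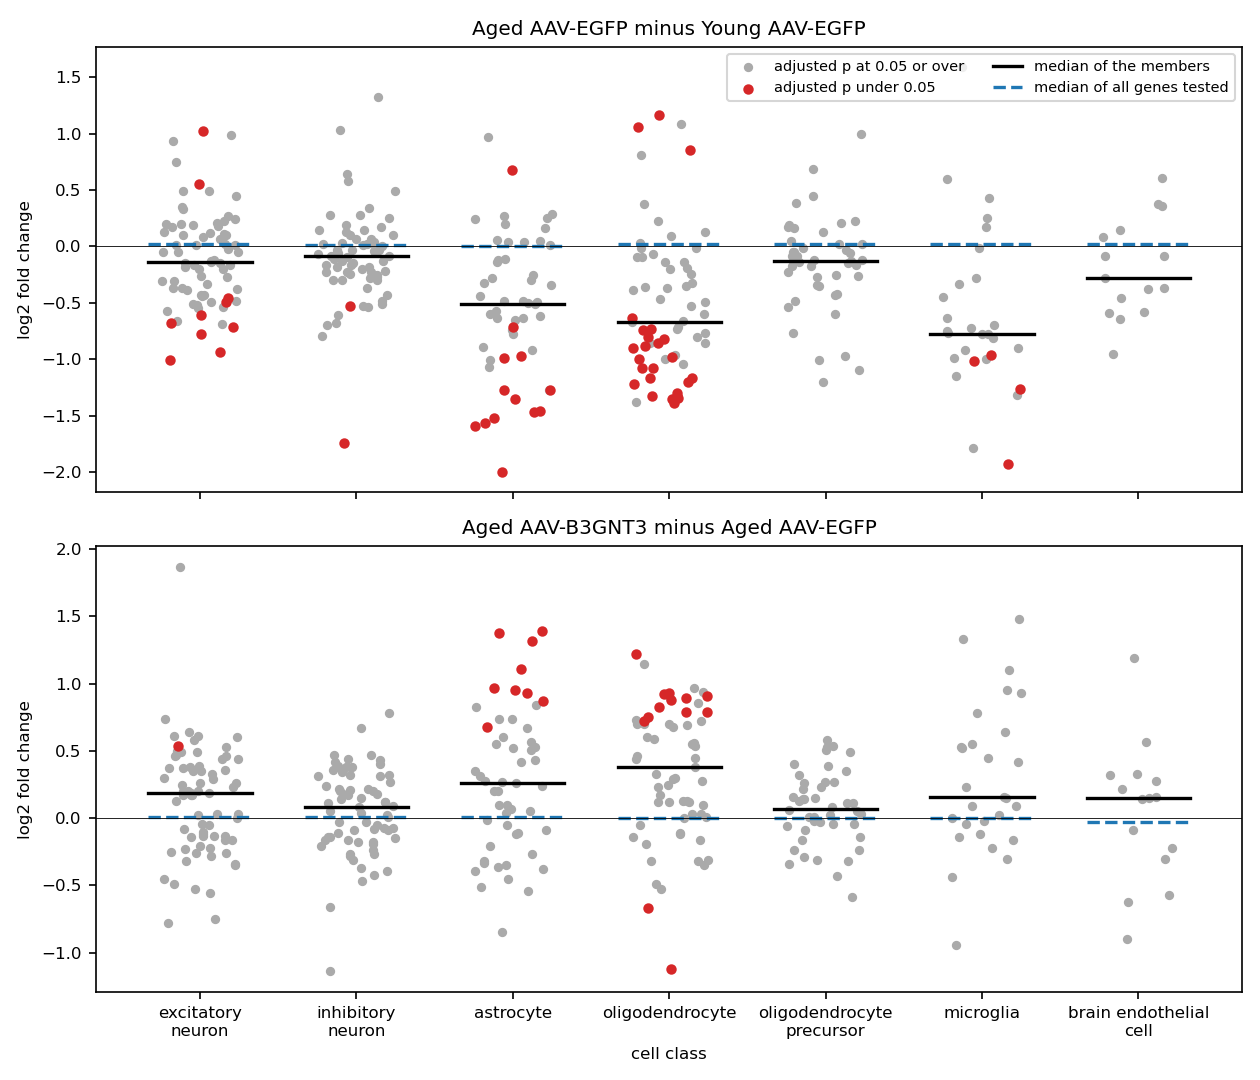
Log2 fold change with ageing (top) and treatment (bottom) for the potassium channel genes tested in each of 7 classes, 1 point per gene, red where adjusted p was under 0.05, with the median of the members (solid line) and of all genes tested (dashed line). In astrocytes and oligodendrocytes the called genes lie mostly below 0 with age and above 0 with treatment, and in excitatory neurons 8 fell and 2 rose with age.

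The largest falls in oligodendrocytes were in Kcnb2 (log2 fold change -1.39 ± 0.20), Kcnk10 (-1.35 ± 0.28), Kcnj3, a GIRK1 gene (-1.33 ± 0.23), Kcnn2 (-1.33 ± 0.24) and Kcnd2 (-1.30 ± 0.19), with adjusted p of 0.00610 or less. Kcnd2 had 697, 846 and 581 CPM in young and 322, 330 and 211 CPM in aged control libraries, which did not overlap. These 5 were called in each alternative in which they were tested. Of the 22 that fell, 14 had their highest level in neurons, as had 33 of the 63 tested. By family the 22 were 4 of 7 Kv10-12, 3 of 4 BK, 2 of 3 SK and 2 of 2 Kv2 genes. Also among them were 2 of 3 Kv4, 2 of 3 GIRK, 2 of 4 Kv7 and 2 of 4 KChIP genes. The rest were 1 of 4 Kv3, 1 of 2 sodium-activated and 1 of 9 leak channel genes. The 6 neuronal nuclear RNAs summed to 3275 to 3536 CPM in young, 1501 to 2225 CPM in aged control and 2855 to 3807 CPM in B3GNT3 libraries, and 4 of 6 fell with age. The neuronal markers of the free-RNA estimate were at 335.2 to 358.2, 227.9 to 385.7 and 281.5 to 320.1 CPM in the same order. For them the aged control libraries overlapped with both other groups.

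Free RNA was estimated at a median of 153.5% of the level of the 25 called genes, so the subtraction could not decide its part in them. After its subtraction 4 of the 25 were still tested, of which Kcnab1 and Kcnj3 were called, together with Kcnk9, which had not been called before. The count of 25 was 16 when young replicate 1 or 3 was left out and 14 when aged control replicate 3 was.

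Of the genes that fell with age, 10 did so in both classes, chosen here after their values were seen, among them Kcnb2, Kcnc2, Kcnh1, Kcnh5, Kcnh7, Kcnip4, Kcnj6, Kcnq5 and Kcnt2. They were 83.3% of the 12 in astrocytes and 45.5% of the 22 in oligodendrocytes. Of all genes that fell, 502 did so in both, which is 56.5% of the 889 in astrocytes and 36.8% of the 1364 in oligodendrocytes, and the difference from the members was not tested. The summed level of the 10 genes in astrocytes was 2487 to 2766 CPM in young, 798 to 1155 CPM in aged control and 1672 to 2439 CPM in B3GNT3 libraries. A lower sum with age in the glial classes follows from how the genes were chosen. Kcnip4 alone had 1454 to 1727 CPM in young astrocytes and a mean of 10890 CPM in excitatory neurons, so it weighs heavily in each sum. In excitatory neurons the same sum was 15043 to 18557, 18029 to 19466 and 15716 to 20764 CPM, and so was not lower in the aged control group. The 3 sets of libraries come from the same nuclei suspensions in both glial classes. The part of free neuronal RNA in the falls was not tested, since the subtraction cannot decide it.

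**Figure D5:**
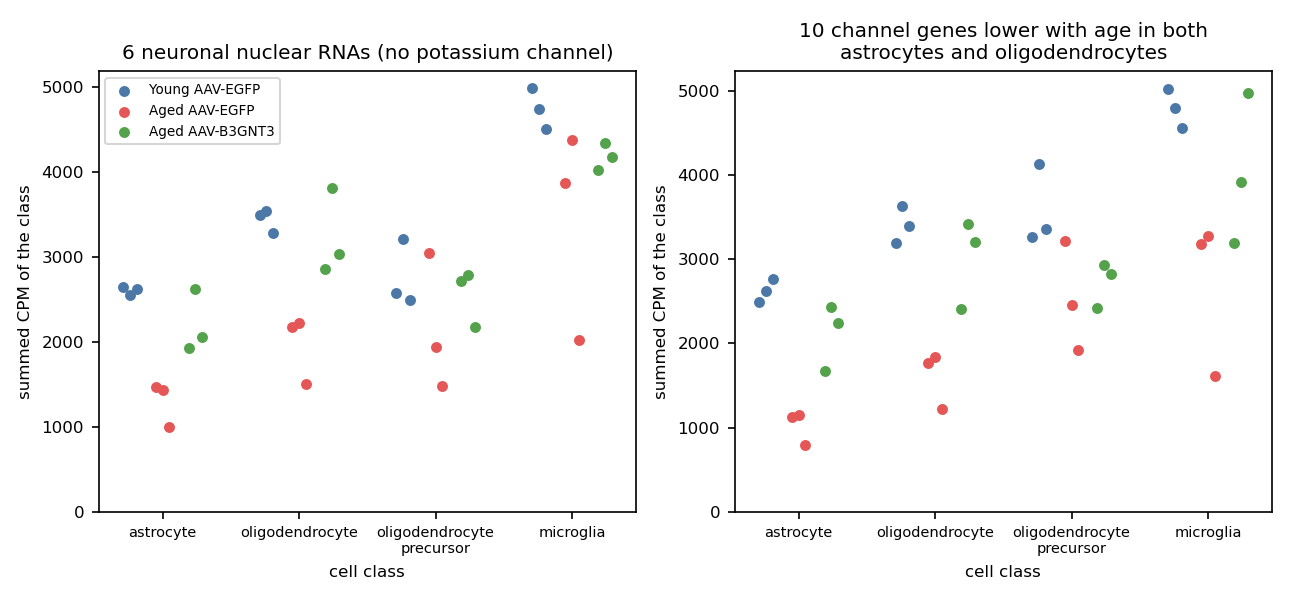
Summed level, in CPM, of the 6 neuronal nuclear RNAs (left) and of the 10 potassium channel genes lower with age in both astrocytes and oligodendrocytes (right), 1 point per library, coloured by group, in 4 glial classes. In astrocytes both sums are lowest in the aged control libraries (994 to 1468 and 798 to 1155 CPM). Both lists were chosen after the data were seen, and the right one for its lower level with age.

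After treatment 11 of 63 members rose and 2 fell in oligodendrocytes, against 9.52% of all genes in either direction and 3.56% that rose. The largest rises were in Kcnip1 (log2 fold change 1.22 ± 0.35), Kcnj3 (0.93 ± 0.22), Kcnj6 (0.92 ± 0.23), Kcnn2 (0.91 ± 0.23) and Kcnb2 (0.89 ± 0.20), with adjusted p from 0.0203 to 0.0466 (edgeR). For 6 of the 11 the highest level was in neurons, as for 33 of the 63 tested, and 2 of the 6 neuronal nuclear RNAs rose. Kcnk13 fell from 434, 391 and 295 CPM in aged control to 235, 194 and 274 CPM in B3GNT3 libraries (log2 fold change -0.67 ± 0.19, adjusted p = 0.0405), and the groups did not overlap. It was one of the few called genes far above its free-RNA estimate (7.43 CPM of 313.6 CPM over all libraries).

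Kcnj13, which is abundant in choroid plexus, went from 7.99, 6.97 and 5.75 CPM in aged control to 2.39, 2.36 and 4.37 CPM in B3GNT3 libraries (log2 fold change -1.12 ± 0.32, adjusted p = 0.0424). Ttr, the main choroid plexus transcript, was at 20.6 to 29.8 CPM in oligodendrocytes of aged control and at 21.8 to 55.9 CPM in those of B3GNT3 libraries, which held 0 to 10 and 19 to 27 choroid plexus nuclei. The part of choroid plexus RNA in the level of Kcnj13 was not tested.

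The calls after treatment again depended on single libraries. Without Aged AAV-B3GNT3 replicate 2 no member was called, and the share of all genes called fell to 0.678%. The log2 fold changes were then 0.93 for Kcnj3, 0.90 for Kcnip1, 0.80 for Kcnj6, 0.78 for Kcnb2, 0.71 for Kcnn2 and -0.52 for Kcnk13, with adjusted p of 0.201 for Kcnk13, 0.193 for Kcnip1, 0.131 for Kcnn2, 0.117 for Kcnj6, 0.0917 for Kcnb2 and 0.0892 for Kcnj3. Without Aged AAV-EGFP replicate 3 there were 3 calls, and Kcnip1 (0.105), Kcnn2 (0.0951), Kcnj6 (0.0752) and Kcnj3 (0.0706) were lost. Kcnip1 also lost its call on the omission of young replicate 2 (0.0642), aged control replicate 1 (0.0822) or 2 (0.0767) or B3GNT3 replicate 1 (0.0728), and Kcnk13 on that of young replicate 2 (0.0592), aged control replicate 1 (0.0735) or 2 (0.110) or B3GNT3 replicate 1 (0.115). Kcnj3 also lost it without Aged AAV-EGFP replicate 2 (0.0691) or Aged AAV-B3GNT3 replicate 3 (0.0613). After the subtraction of free RNA 3 of the 13 were still tested and none was called. Kcnk13 then had a log2 fold change of -0.62 (adjusted p = 0.141), close to the one before, and Kcnj3 an adjusted p of 0.0769, with a free-RNA estimate of 97.1 CPM above its level of 50.4 CPM in aged control libraries. With doublets left in there were 7 calls.

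Microglia had 4 of 28 members lower with age and none higher, against 7.12% of all genes in either direction and 3.85% that fell. At an unadjusted p under 0.05 there were 19 members (67.9%, against 23% of all genes, edgeR). The median log2 fold change was -0.78 over the members and 0.02 over all genes. They were Kcnh5 (log2 fold change -1.93 ± 0.42), Kcnn2 (-1.26 ± 0.33), Kcnj3 (-1.02 ± 0.28) and Kcnip4 (-0.96 ± 0.22), with adjusted p from 0.0116 to 0.0333 (edgeR). Kcnip4, which encodes KChIP4, had 3121, 3086 and 2837 CPM in young and 1644, 2075 and 935 CPM in aged control libraries, with a free-RNA estimate of 2820 and 3208 CPM. The free-RNA estimate was 127.6% to 187.6% of the level of the 4 genes. None of them passed the filter after the subtraction, as follows from such estimates, and none was called with doublets left in. The 6 neuronal nuclear RNAs were at 4506 to 4984 CPM in young and 2024 to 4371 CPM in aged control libraries, and none of them was called. The neuronal markers of the free-RNA estimate overlapped between these groups, at 434.7 to 468.7 and 278.3 to 624.4 CPM.

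The microglial channel genes were not called. Kcnk13 had 263, 223 and 222 CPM in young, 409, 236 and 320 CPM in aged control and 292, 318 and 263 CPM in B3GNT3 libraries, a log2 fold change with age of 0.43 ± 0.20 (adjusted p = 0.201, edgeR). Kcnk6 had one of 0.60 ± 0.27 (adjusted p = 0.174). The count of 4 was 1 when young replicate 2 or aged control replicate 3 was left out, 2 when young replicate 3 was, 7 when aged control replicate 2 was and 12 when aged control replicate 1 was. Kcnh5 lost its call on the omission of young replicate 1 (adjusted p = 0.0827) or aged control replicate 3 (0.0535), and Kcnip4 on that of young replicate 2 (0.0520). Kcnn2 lost it on the omission of young replicate 2 (0.113) or 3 (0.0794) or aged control replicate 3 (0.134), and Kcnj3 on that of any young library (0.0706 to 0.0994) or aged control replicate 2 (0.0959) or 3 (0.146). In these fits the log2 fold changes were -1.64 to -1.55 for Kcnh5, -0.96 for Kcnip4, -1.27 to -0.86 for Kcnn2 and -1.12 to -0.81 for Kcnj3. With only the compared groups in the fit adjusted p was 0.0577 for Kcnj3 and 0.0591 for Kcnn2, and with no upper limit on genes it was 0.111 and 0.122.

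After treatment 0 of 28 members were called in microglia, against 0.738% of all genes, with 5 at an unadjusted p under 0.05 (17.9%, against 12.6% of all genes) and 0 by DESeq2. Leaving out Aged AAV-EGFP replicate 2 gave 1 call. Kcnk13 had a log2 fold change of -0.14 ± 0.19.

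No member was called by edgeR in oligodendrocyte precursors with age, against 1.07% of all genes. At an unadjusted p under 0.05 there were 9 of 44 members (20.5%), near the 18.5% of all genes, and DESeq2 called 2 members and 2.03% of all genes. Kcnk10 came nearest, with 295, 244 and 285 CPM in young, 166, 198 and 178 CPM in aged control and 245, 219 and 215 CPM in B3GNT3 libraries (log2 fold change -0.60 ± 0.14, adjusted p = 0.0517). The aged control libraries lay below all others. The marker of the class, Kcnh8, had 361.8 ± 36.8 CPM in young and 494.7 ± 58.5 CPM in aged control libraries (log2 fold change 0.45 ± 0.14, adjusted p = 0.121). Without Aged AAV-EGFP replicate 1, 6 members were called, and the same omission gave 19 calls in excitatory neurons and 12 in microglia. The share of all genes called without that library is not given here. After treatment 0 of 44 were called, against 0.212% of all genes, with 5 at an unadjusted p under 0.05 (11.4%, against 12% of all genes) and 0 by DESeq2.

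In brain endothelial cells, the cells the virus was directed to, 15 members were tested and none was called with age or treatment, against 0% and 0.148% of all genes. At an unadjusted p under 0.05 there was 1 member in each comparison (6.67%, against 12.3% and 11.1% of all genes), and DESeq2 called 0 in both. Kcnq1, the gene that marks the class, had 102, 57.8 and 115 CPM in young, 65.9, 105 and 235 CPM in aged control and 106, 69.6 and 169 CPM in B3GNT3 libraries, which overlapped (log2 fold changes 0.61 ± 0.45 and -0.30 ± 0.46). These sums held 142236 to 312757 UMIs per library, and on simulated data at this depth the test found 27% of changes of 1 and 76% of changes of 1.5 on the log2 scale with age, against 77% and 96% in excitatory neurons. A change of that size could therefore be missed in endothelial nuclei.

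Genes that encode partners of potassium channels were tested in the same fits from a list of 17. In excitatory neurons 13 were tested and none was called, against 14.1% of all genes with age and 2.49% after treatment. In inhibitory neurons 14 were tested and none was called, against 4.07% and 0.659%. In astrocytes 4 of 10 fell and 1 rose with age, against 7.02% of all genes that fell. Dpp6 (log2 fold change -1.75 ± 0.25) and Dpp10 (-1.40 ± 0.18) encode Kv4 partners, the product of Cntnap2 (-1.41 ± 0.18) holds Shaker channels beside the node of Ranvier, and Lgi1, a secreted protein gene, rose by 0.70 ± 0.19. In oligodendrocytes 5 of 11 fell, against 10.3% of all genes, among them Dpp6, Dpp10, Cntnap2 and Lgi1, the last by 0.87 on the log2 scale. In microglia 2 of 6 fell, against 3.85% of all genes, Dpp10 among them. In young astrocytes the free-RNA estimate exceeded the level of Dpp6 (226 against 125.4 CPM), Dpp10 (260.2 against 223.4 CPM) and Cntnap2 (666.1 against 598.5 CPM), and was 26.9 of 193.8 CPM for Lgi1. The summed level of the 6 neuronal nuclear RNAs, a list chosen after the data were seen, was also lower with age in astrocytes and oligodendrocytes. In microglia that sum was lower too (4506 to 4984 CPM in young, 2024 to 4371 CPM in aged control libraries), though none of the 6 was called. The neuronal markers of the free-RNA estimate overlapped between young and aged control libraries in each of these classes. The part of free RNA in the falls was not tested. Dpp6, Dpp10 and Cntnap2 rose after treatment in both astrocytes (3 of 10, against 2.01% of all genes) and oligodendrocytes (3 of 11, against 3.56%). Without Aged AAV-B3GNT3 replicate 2 their log2 fold changes were 0.51 to 0.76 in astrocytes and 0.64 to 0.96 in oligodendrocytes, with adjusted p from 0.0601 to 0.205. No partner was called in oligodendrocyte precursors (9 tested, against 1.07% of all genes with age and 0.212% after treatment). The same held for brain endothelial cells (7 tested, against 0% and 0.148%) and, after treatment, for microglia (6 tested, against 0.738%).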

How the data were processed

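Nuclei of 9 mice were profiled with 10x 3′ chemistry. The deposited UMI counts, 1 value for each gene in each nucleus, were made by the authors with Cell Ranger on GRCm38 (mm10). The version is 7.2.0 per the file headers and 4.0.0 in the methods, and whether intronic reads were counted was not given in the sources used here. The study itself removed free RNA with SoupX and doublets with DoubletFinder before its own analysis, and the deposited counts were used here as they stand.

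Of 77823 barcodes, those with 200 to 5000 genes and under 10% mitochondrial UMIs were kept (74895), and 5532 barcodes, some of them outside these limits, were marked as doublets by their likeness to simulated ones (0.8% per 1000 barcodes), which left 70300 nuclei. Nuclei were clustered on 2000 variable genes without Kcn genes, with 15 principal components, 20 neighbours and Leiden clustering (leidenalg 0.10.2) at a resolution of 0.3, and clusters were named from marker lists. UMIs were summed per library and class and tested with edgeR 4.0.16 (R 4.3.3, filterByExpr with a minimum count of 10, TMM, quasi-likelihood test, all 9 libraries in 1 fit, Benjamini-Hochberg adjustment over all genes, threshold 0.05). A self-test used simulated counts in which 200 genes had been altered. Alternatives were DESeq2 1.42.0, other scalings and filters, free-RNA subtraction, other clusterings and each library left out. p-values measure the spread between mice.

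Genes named were, per class, the 3 with the highest ratio to the next class at 20 CPM or more, per neuron subclass 2, every called gene up to 10 per class and comparison (beyond that the 5 largest in each direction with 50 or more UMIs per library) and 10 genes listed in advance. Some genes that meet these rules are not reported here. The members and lists were chosen with earlier results of these data known, and the sub-clustering, the neuronal nuclear RNA list and the alternatives without the Drd2-led cluster and with the largest excitatory cluster alone were set after the data were seen.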

Additional observations from a re-analysis of the deposited data

How the results depend on the processing

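Values are numbers of potassium channel genes called, beside the main count. Where no share over all genes is given for a setting, its count does not tell whether the members moved apart from all genes. DESeq2 called 18 with age in excitatory neurons (main 10), 5 in inhibitory neurons (2) and 2 in oligodendrocyte precursors (0), and after treatment 11 in excitatory (1) and 2 in inhibitory neurons (0). Without a filter on low counts, the calls with age were 17 in excitatory and 7 in inhibitory neurons, 20 in astrocytes (13), 6 in oligodendrocyte precursors and 13 in microglia (4). After treatment they were 8 in excitatory and 3 in inhibitory neurons, 22 in oligodendrocytes (13), 4 in microglia (0) and 1 in brain endothelial cells (0). RLE size factors gave 1, a clustering resolution of 1.0 gave 5 and no upper limit on genes gave 2 with age in oligodendrocyte precursors, and the last gave 2 in microglia. With only the compared groups in the fit, the calls were 0 with age in inhibitory neurons and, after treatment, 0 in excitatory and 1 in inhibitory neurons and 8 in oligodendrocytes. Free-RNA subtraction left 1 with age in inhibitory neurons, 0 in astrocytes, 3 in oligodendrocytes (25) and 0 in microglia, and 0 after treatment in astrocytes (9) and oligodendrocytes. It also left 164 of 828 gene and class levels at 20 CPM or more, against 270. With doublets left in, the calls with age were 0 in astrocytes and microglia and 1 in oligodendrocyte precursors, and after treatment 0 in astrocytes, 7 in oligodendrocytes and 1 in microglia. Without the Drd2-led cluster, inhibitory neurons had 7 calls with age and 1 after treatment. The causes were not tested.

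Leaving out each library in turn gave, with age, 2 to 19 calls in excitatory neurons, 0 to 4 in inhibitory neurons, 10 to 17 in astrocytes, 14 to 26 in oligodendrocytes, 0 to 6 in oligodendrocyte precursors, 1 to 12 in microglia and 0 in brain endothelial cells. After treatment it gave 0 to 16, 0 to 2, 0 to 10, 0 to 14, 0, 0 to 1 and 0 in the same order.

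Libraries of different groups share replicate numbers. The numbers did not pair the samples, since same-numbered libraries had correlations of -0.322 to 0.344 in their deviations from the group means, 12 of 63 over 0.1, and a library correlated best with its own number in 7 of 63 cases. With a replicate block the calls were 0 with age in inhibitory neurons and 0 after treatment in excitatory neurons, and no other count moved by over 1.5 times. It also ended the call of Kcnj3 with age in microglia (adjusted p = 0.0516).

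Some genes that passed no test changed sign (log2 fold changes). Over the libraries left out in turn, the ranges with age were -0.26 to 0.05 for Kcnj10 in astrocytes, -0.07 to 0.10 for Kcnd2 and -0.07 to 0.07 for Kcnma1 in excitatory neurons and -0.37 to 0.14 for Kcnc2 in inhibitory neurons, and after treatment -0.03 to 0.08 for Kcnq3 in excitatory neurons, -0.43 to 0.08 for Kcnc2 in inhibitory neurons and -0.32 to 0.08 for Kcnk13 in microglia. Kcnd2 (-0.03) and Kcnma1 (-0.04) turned after free-RNA subtraction, Kcnma1 with age (-0.02) and Kcnq3 after treatment (-0.00) in the largest excitatory cluster alone, Kcnc2 with age without the Drd2-led cluster (0.02) and Kcnk13 with doublets left in (0.02). Of called genes, Kcnb2 (-0.23), Kcnc2 (-0.12), Kcnh7 (-0.59), Kcnip4 (-0.19), Kcnj6 (-0.12) and Kcnq5 (-0.47) turned after treatment in astrocytes with doublets left in.

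Of the levels named, 19 moved by over 1 SD under subtraction or with doublets left in. Endothelial, pericyte and fibroblast values rest on the fewest UMIs.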

Other observations

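Several members that were not tested in any class had few UMIs and their highest level in vascular or immune nuclei. Kcne4, an auxiliary subunit gene, had 118 UMIs over the 70300 nuclei and its highest level in pericytes (15.6 CPM, from 34 of these UMIs), where Kcnmb1, the BK beta subunit gene of smooth muscle, had 16.6 CPM. Kcnn4, the intermediate-conductance calcium-activated channel gene of immune cells, had 89 UMIs, of which 45 were in excitatory neurons (0.191 CPM), 10 in microglia (2.72 CPM) and 5 in brain endothelial cells (2.70 CPM). Kcnj1, Kcna7, Kcnj15, Kcnk16 and Kcnk15 had 1, 2, 4, 6 and 8 UMIs in all libraries together.

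In the 117 choroid plexus nuclei, whose summed counts held 870552 UMIs, Kcnh1, an EAG channel gene, was at 681.2 CPM against 306.1 CPM in excitatory neurons, the next class. Kcnj13 was at 181.5 CPM against 24.1 CPM in fibroblasts. These sums have no spread between libraries, since a library held 0 to 27 such nuclei.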
